A study of Mus musculus with 6 samples.

Results

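The genes described are 8 protein-coding genes that are seldom discussed in fat, namely Olfr1033, Map3k6, Kcna5, Enc1, Asph, Doc2b, Cuzd1 and Fam20c, out of 55039 genes listed in the count table. They were taken by name, and the names had been picked because all 3 libraries of the cachexia group (CAC) lay apart from all 3 libraries of the control group (CONT) in normalized counts. The separation of the groups in these genes is therefore how they were found and not a finding, and no test of it is given for any of them. RNA was sequenced from epididymal fat, a white adipose depot (eWAT), of 6 male C57BL/6 mice that were 6 to 7 weeks old at the start. CAC mice had received 5000000 Lewis lung carcinoma (LLC) cells under the skin, a mouse lung tumour line that wastes its host, and CONT mice had received phosphate-buffered saline. The fat was collected on day 28, and each mouse gave 1 poly(A) mRNA library, so that the groups differed in the tumour and shared strain, sex and day. The LLC model is a single transplanted tumour, and the pads were sequenced whole, with vessels, immune cells and any neighbouring tissue included. In such bulk libraries fewer cells of a type and less RNA per cell cannot be told apart.

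Map3k6 encodes apoptosis signal-regulating kinase 2 (ASK2), a kinase at the top of the stress-activated p38 and JNK cascades that works with its paralog ASK1. Kcna5 encodes Kv1.5, a voltage-gated potassium channel of heart and smooth muscle. Enc1 encodes a kelch-repeat adaptor of the cullin 3 ubiquitin ligase that was first described in neurons. Asph encodes the aspartate beta-hydroxylase together with shorter products, junctin and junctate, which sit in the membrane of the calcium-storing endoplasmic reticulum (ER). Doc2b is a calcium sensor of vesicle fusion that takes part in insulin-driven delivery of the glucose transporter GLUT4. Fam20c is the kinase of the secretory pathway that phosphorylates secreted proteins, Cuzd1 is a membrane protein with CUB and zona pellucida domains known from the exocrine pancreas, and Olfr1033 belongs to the olfactory receptor family, which is known best from the nose.

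Libraries held 15713794 to 25926425 counted reads. Adipocyte markers were abundant in all 6 libraries, where the 8 markers summed to 14963 to 36684 CPM (a gene's reads relative to the size of its library after TMM scaling), and their ranges in CONT and CAC overlapped, so the tissue label held. Singly, 1 of the 8 did not overlap (all genes 22.5%), namely Pnpla2 at 1312 to 1916 CPM in CONT and 3787 to 4725 CPM in CAC. Fabp4, Retn, Lipe and Plin1 had log2 fold changes of -0.79, -0.72, -0.27 and -0.25, and Cidec and Adipoq of 0.53 and 0.40. Lep was at 409 to 697 CPM in CONT and at 512, 3.996 and 0.415 CPM in CAC replicates 1 to 3. Several libraries stood apart. CONT replicate 1 had 30.2% of its reads on mitochondrial genes against 3.89% to 5.04% in the other 5. Epididymis markers (Gpx5, Lcn5, Lcn8, Adam7 and Crisp1) summed to 8793 CPM in CONT replicate 3, 202 CPM in CONT replicate 1 and 2.63 CPM in CONT replicate 2, against 0 to 0.566 CPM in CAC. Testis markers reached 1007 CPM in CONT replicate 2 and 1398 CPM in CAC replicate 3, and pancreatic acinar markers reached 122 CPM in CAC replicate 3. Neutrophil markers summed to 2.50 to 44.8 CPM in CONT and 127 to 1027 CPM in CAC. Of the 5, 4 were higher in CAC without overlap, against 11.8% of all genes. B and plasma cell markers summed to 34.4 to 91.5 CPM in CONT and 7.82 to 19.0 CPM in CAC. Of the 6, 5 were lower in CAC without overlap, against 10.7% of all genes. Erythroid markers summed to 4587, 229 and 354 CPM in CONT replicates 1 to 3 and to 1729 to 2195 CPM in CAC. Endothelial markers summed to 1140 to 1705 CPM in CONT and 1618 to 1689 CPM in CAC, mesothelial markers to 80.9 to 178 and 56.9 to 153 CPM, and T cell markers to at most 11.3 CPM in any library. The part of these differences in the results was not tested unless a value below bears on it. Among 17296 genes tested with the edgeR quasi-likelihood test, 0 (0%) reached an adjusted p under 0.05, and 2294 (13.3%) had an unadjusted p under 0.05. With DESeq2, 965 of 17160 genes (5.62%) had an adjusted p under 0.05. The p-values measure the spread among these 6 mice alone, and the adjusted p-values given for single genes are those of edgeR over all genes tested unless DESeq2 is named.

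Of the 8 genes, 6 were higher and 2 lower in every CAC library than in every CONT library. Over all genes tested, 22.5% did not overlap between the groups, 11.8% higher and 10.7% lower in CAC, and since the rule used this contrast nothing is read from the count of 8. Where the 6 genes were higher, the mean CPM differed by 2.97-fold to 11.2-fold. Where Cuzd1 and Fam20c were lower, it differed by 70.1-fold and 3.37-fold. The CONT mean of Cuzd1 leans on CONT replicate 3, at 224 CPM against 51.9 and 74.2 CPM in CONT replicates 1 and 2. The distance between the nearest CAC and CONT libraries ran from 1.16 on the log2 scale for Fam20c to 4.49 for Cuzd1. In that distance, the genes ranked between the 1st (Cuzd1) and the 163rd (Fam20c) of the 3883 non-overlapping genes.

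**Figure D1:**
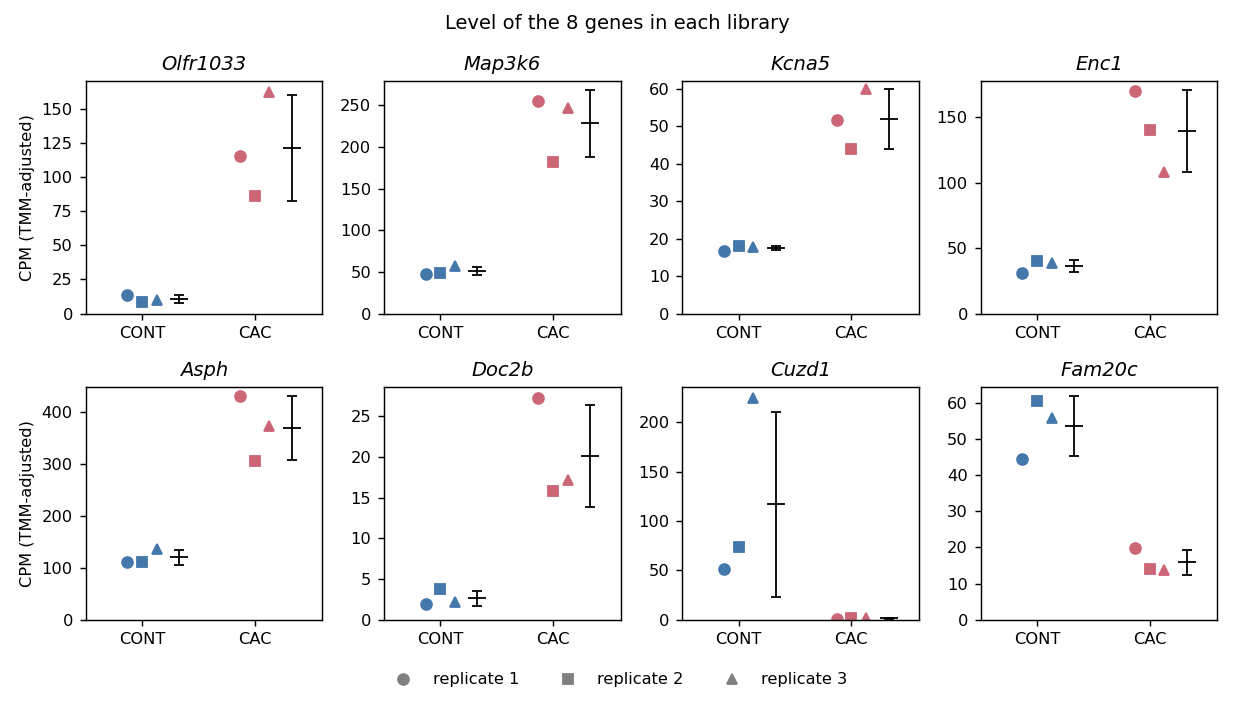
CPM (TMM-adjusted, linear axes from 0) of the 8 genes in each of the 6 libraries, CONT in blue and CAC in red, with the mean and SD of the 3 libraries in black. Map3k6 ran from 47.4 to 56.6 CPM in CONT and from 182 to 255 in CAC, and Cuzd1 was spread most within a group, from 51.9 to 224 CPM in CONT.

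The start regions of 4 of the 8 genes, Map3k6, Kcna5, Cuzd1 and Fam20c, were matched in RefSeq (GRCm38.p6), and Olfr1033, Enc1, Asph and Doc2b were not matched. The sequences are shown because they cover genes higher and genes lower in CAC and differ widely in base composition. Each is the gene's strand, 300 bases from 250 before to 50 after the RefSeq start, with the motif matches in capitals: ACANNNTGT, the core of a palindromic glucocorticoid response element, AGGTCA, a nuclear receptor element read here on the opposite strand as TGACCT, the CCAAT box, and the GC box GGGCGG. Map3k6 is at chr4:133240568-133240867 on the plus strand, Kcna5 at chr6:126535506-126535805 on the minus strand, Cuzd1 at chr7:131322243-131322542 on the minus strand, and Fam20c at chr5:138754831-138755130 on the plus strand.
Map3k6: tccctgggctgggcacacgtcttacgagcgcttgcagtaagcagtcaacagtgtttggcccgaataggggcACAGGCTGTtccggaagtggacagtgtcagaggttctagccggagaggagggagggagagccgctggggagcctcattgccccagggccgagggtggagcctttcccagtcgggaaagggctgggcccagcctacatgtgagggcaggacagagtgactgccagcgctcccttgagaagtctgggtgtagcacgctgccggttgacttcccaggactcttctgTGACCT
Kcna5: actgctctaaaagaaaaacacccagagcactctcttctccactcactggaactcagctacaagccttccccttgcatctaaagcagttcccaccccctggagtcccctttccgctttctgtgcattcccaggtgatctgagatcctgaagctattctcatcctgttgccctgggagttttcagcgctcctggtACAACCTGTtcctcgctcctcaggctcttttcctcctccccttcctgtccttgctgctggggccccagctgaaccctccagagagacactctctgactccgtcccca
Cuzd1: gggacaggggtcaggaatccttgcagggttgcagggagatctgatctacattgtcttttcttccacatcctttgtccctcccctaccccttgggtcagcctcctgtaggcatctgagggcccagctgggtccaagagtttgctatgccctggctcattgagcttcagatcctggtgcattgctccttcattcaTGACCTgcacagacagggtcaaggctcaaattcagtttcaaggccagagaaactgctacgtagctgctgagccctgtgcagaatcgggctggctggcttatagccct
Fam20c: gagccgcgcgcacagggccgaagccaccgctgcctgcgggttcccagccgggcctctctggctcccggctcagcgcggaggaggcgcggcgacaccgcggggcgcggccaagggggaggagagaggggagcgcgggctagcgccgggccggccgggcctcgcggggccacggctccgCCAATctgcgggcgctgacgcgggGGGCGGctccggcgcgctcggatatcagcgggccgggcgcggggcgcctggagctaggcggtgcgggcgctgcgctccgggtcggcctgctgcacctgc

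Both Map3k6 and Kcna5 held ACANNNTGT, beginning 179 and 57 bases before the start, and 6.85% of all 32851 promoters of this length held it on either strand. AGGTCA was matched in Map3k6, 45 bases after the start, and in Cuzd1, 57 bases before it, against 16.3% of all promoters. Fam20c held CCAAT 73 bases and GGGCGG 49 bases before the start, motifs present in 37.4% and 35.7% of promoters. None of these matches overlapped another. Of 11 motifs searched, the other 7 had no match in the 4 windows: AGAACA, the single arm of a glucocorticoid receptor site (19.0% of all promoters), TTCNNNGAA of STAT factors (8.30%), GTAAACA of FOXO factors (3.65%), CACGTG of clock factors (7.15%), TTGCNNAA of C/EBP factors (10.8%), TGACGT of the cAMP response (7.51%) and the TATA box TATAAA (13.6%). The Fam20c window was 80.7% G and C with 47 CpG dinucleotides, Map3k6 62.0% with 12, Kcna5 55.0% with 4 and Cuzd1 54.3% with 2, where the median promoter had 52.7% and 7. The matches are letters in a window, and no binding was measured. The deposited start of Map3k6 and of Cuzd1 was the RefSeq start, whereas that of Fam20c lay 567 bases and that of Kcna5 143 bases from it.

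Olfr1033 (ENSMUSG00000045392, chr2:86020633-86045171, plus strand) had the largest difference among the genes that were higher in CAC. Its level was 13.8, 8.67 and 9.85 CPM in CONT replicates 1 to 3 and 115, 85.9 and 162 CPM in CAC replicates 1 to 3. The lowest CAC library was above the highest CONT library by 2.63 on the log2 scale. The log2 fold change of CAC over CONT was 3.49 ± 0.33 (standard error, as for the fold changes below, edgeR), and leaving out each library in turn gave 3.23 to 3.72. Per gene length, its level was 2.04 ± 0.528 FPKM (SD, n = 3, as below) in CONT and 23.2 ± 7.40 FPKM in CAC. By mean FPKM it stood at the 39.3rd percentile of the genes tested in CONT and at the 89.9th in CAC.

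The olfactory receptor family was otherwise nearly silent in the fat pads. Of 1407 genes with an Olfr symbol, 1194 had no read in any library, 40 had at least 10 reads in total and 10 were tested. Olfr1033 held 9799 of the 12873 reads on all of them, or 76.1%. The next by reads were Olfr1372-ps1, Olfr558, Olfr56, Olfr920 and Olfr1034, with 680, 519, 179, 170 and 167 reads. Olfr1372-ps1 had a log2 fold change of 0.55 ± 0.36 (adjusted p = 0.523) and Olfr558 of -0.42 ± 0.36 (adjusted p = 0.636), and the groups overlapped in both. The neighbour on one side, Olfr1032, had 0 reads. On the other side Olfr1034 began 690 bases past the end of Olfr1033 on the same strand, with 7, 14 and 9 reads in CONT and 94, 20 and 23 in CAC. Its log2 fold change was 1.75 ± 0.76 (adjusted p = 0.389), and 0.66 without CAC replicate 1. Receptors of this family are close in sequence, and reads shared between copies can be placed wrongly.

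Of 8 genes that carry an olfactory signal in the nose, 4 had enough reads to be tested, and 0 reached an adjusted or an unadjusted p under 0.05 with edgeR, nor an adjusted p under 0.05 with DESeq2. Adcy3, the adenylate cyclase of olfactory neurons, was read in every library, with 34 to 573 reads in CONT and 553 to 2387 in CAC, and had a log2 fold change of 1.55 ± 0.83 (adjusted p = 0.454). CAC replicate 3 held 90.1 CPM of it against 22.7 and 33.02 CPM in the other CAC libraries, and without that library the log2 fold change was 0.76. Reep1 had -0.73 and Ric8b -0.10, and Reep1 alone had an unadjusted p under 0.05 without CONT replicate 1. The genes most like Olfr1033 across the 6 libraries, by root mean square difference of log2 CPM centred on each gene's mean, were Il1f9 (0.30), an interleukin-1 family cytokine, Gm49303 (0.38) and 2010106E10Rik (0.42). All 3 were scarce, at 0.0891 to 0.148 CPM on average in CONT.

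Map3k6 (ENSMUSG00000028862, chr4:133240818-133252929, plus strand) was read at 47.4, 49.4 and 56.6 CPM in CONT and at 255, 182 and 247 CPM in CAC. The CONT libraries were close together, 1.19-fold from lowest to highest, and all were well under the lowest CAC library. This gave a log2 fold change of 2.16 ± 0.22, and 2.10 to 2.31 with each library left out. With 8.93 ± 0.825 FPKM in CONT and 40.5 ± 7.30 FPKM in CAC it was the most abundant of the 8 genes per length in CAC.

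Its paralogs did not show a difference of this size. Map3k5, which encodes ASK1, was at 6.62 ± 0.716 FPKM in CONT and 8.58 ± 1.69 FPKM in CAC, with a log2 fold change of 0.35 ± 0.20 (adjusted p = 0.488). Map3k15, which encodes ASK3, stayed at 0.352 ± 0.213 and 0.479 ± 0.0992 FPKM (0.40 ± 0.60, adjusted p = 0.806). Of the FPKM of the 3 kinases together, Map3k6 made up 53.0% to 58.6% in CONT and 78.1% to 85.6% in CAC. In a list of 20 tested genes of the stress MAPK cascade, which holds these paralogs, regulators of the kinases and the kinases they act on, 0 were higher and 2 lower at an unadjusted p under 0.05 (all genes 6.31% and 6.95%). These were Mapk11, a p38 kinase, at -0.94 (adjusted p = 0.357), and Map2k6, the kinase that activates p38, at -1.30 (adjusted p = 0.368). With each library left out, 0 to 1 of the 20 had such a p. The median log2 fold change of the 20 was 0.01, against -0.06 over all genes tested, and neither edgeR nor DESeq2 gave an adjusted p under 0.05 for any of them.

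The gene next to Map3k6, Sytl1, ended 161 bases away on the opposite strand and had a log2 fold change of -0.08 ± 0.54 (adjusted p = 0.967). Cd164l2, 16263 bases away on the other side, had 1.92 ± 0.62 (adjusted p = 0.298), and its groups overlapped. The genes most like Map3k6 across libraries were Alas1 (root mean square difference 0.11), the first enzyme of haem synthesis, Maff (0.19), a small MAF transcription factor, and Lao1 (0.20), an amino acid oxidase.

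Kcna5 (ENSMUSG00000045534, chr6:126532551-126535412, minus strand) is a gene of 1 exon that encodes 602 codons in the GENCODE M21 model. It was at 16.8, 17.9 and 17.8 CPM in CONT and at 51.8, 44.0 and 59.9 CPM in CAC. The CONT libraries were nearly equal: their SD of 0.053 on the log2 scale lay at the 1.68th percentile of the genes tested. Their counting errors were 7.29%, 4.94% and 5.04%, so counting alone could spread them this far. The rule also favours genes with little spread within a group, and nothing is read from the small SD. CAC exceeded CONT by a log2 fold change of 1.57 ± 0.18, and 1.46 to 1.69 with each library left out.

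Kcna5 was the main Kv1 channel gene of the pads in both groups. It was at 4.92 ± 0.140 FPKM in CONT and 14.8 ± 2.29 FPKM in CAC, while none of the other 7 Kv1 genes exceeded a group mean of 0.694 FPKM (Kcna2 in CONT). Its share of the family's FPKM was 75.0% to 82.7% in CONT and 87.7% to 94.7% in CAC. Log2 fold changes of the other tested channels were 0.71 ± 0.66 for Kcna1, -0.44 ± 0.66 for Kcna2, -0.14 ± 1.01 for Kcna3 and 0.81 ± 0.68 for Kcna6, with adjusted p of 0.659, 0.808, 0.968 and 0.626. Without CAC replicate 2 the log2 fold change of Kcna1 was 0.07 and that of Kcna6 was 0.10. Without CONT replicate 1 that of Kcna2 was 0.50, and that of Kcna3 ran from -0.64 to 0.55 with each library left out. Kcna4 and Kcna7 had 3 and 21 reads in all and Kcna10 had 0, and they were not tested. Of 12 tested channel and auxiliary subunit genes, 1 was higher and 0 were lower at an unadjusted p under 0.05 (all genes 6.31% and 6.95%), namely Kcne4, an inhibitory subunit, at 0.94 (adjusted p = 0.329). Its unadjusted p stayed under 0.05 without CAC replicate 3 or CONT replicate 2 and not without any of the other 4 libraries. Kcnab1, a cytoplasmic beta subunit, had 0.76 (adjusted p = 0.463). No gene of this list had an adjusted p under 0.05 with edgeR or DESeq2. Markers of smooth muscle and pericytes, in which Kv1.5 is well known, summed to 606 to 693 CPM in CONT and 450 to 981 CPM in CAC. The 981 CPM are those of CAC replicate 2, where Myh11 was at 432 CPM against 102 and 116 CPM in the other CAC libraries, and the pericyte marker Rgs5 was lower in every CAC library (232 to 254 CPM) than in every CONT library (359 to 417 CPM). Their part in the Kcna5 difference was not tested.

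Enc1 (ENSMUSG00000041773, chr13:97241105-97253034, plus strand) was at 31.3, 40.1 and 38.3 CPM in CONT and at 170, 140 and 108 CPM in CAC. CAC replicate 3 was lowest of its group, and it still exceeded the highest CONT library by 1.43 on the log2 scale. The log2 fold change was 1.93 ± 0.23 (1.81 to 2.09 with each library left out), and the level per length was 6.20 ± 0.740 FPKM in CONT and 24.0 ± 5.53 FPKM in CAC. Its nearest paralog Klhl25 was at 3.00 ± 0.878 and 4.16 ± 1.98 FPKM (log2 fold change 0.45 ± 0.39, adjusted p = 0.635, and -0.01 without CAC replicate 3). Markers of neurons and Schwann cells, the cells in which Enc1 and Doc2b are best known, summed to 5.38 to 32.6 CPM in CONT and 5.91 to 11.5 CPM in CAC. Their part in the difference was not tested.

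Among 16 other kelch proteins and parts of the cullin 3 ligase, 4 were higher and 1 lower at an unadjusted p under 0.05, against 6.31% and 6.95% of all genes. Klhl7 was higher at 0.81 (adjusted p = 0.228), Klhl21 at 1.09 (adjusted p = 0.268), and Klhl13 was lower at -1.16 (adjusted p = 0.327). The median of the 16 was 0.33, and 2 to 4 had such a p with each library left out, in place of 5. None had an adjusted p under 0.05 with edgeR, whereas Klhl7 and Klhl21 did with DESeq2 (0.00249 and 0.0333). The genes most like Enc1 were Gm42809 (0.24), Cyp2e1 (0.24), an ethanol-oxidizing cytochrome P450, and Lpin1 (0.25), a phosphatidate phosphatase of lipid synthesis.

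Asph (ENSMUSG00000028207, chr4:9448069-9669344, minus strand) was the most heavily read of the genes, with 34745 reads in all. It was at 112, 112 and 137 CPM in CONT and at 430, 306 and 372 CPM in CAC, and the groups did not overlap. On the log2 scale the fold change was 1.62 ± 0.23, and 1.54 to 1.75 with each library left out. The gene model holds 15 coding transcripts of 73 to 741 codons from 4 starts, and counts per gene do not tell hydroxylase, junctin and junctate apart. Per length of all its exons it was at 6.01 ± 0.722 FPKM in CONT and 18.7 ± 3.29 FPKM in CAC. The opposite-strand gene Clvs1, whose end overlaps that of Asph, had 86 reads. Its log2 fold change was -1.97 ± 0.69 (adjusted p = 0.327), opposite in sign to that of Asph.

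Its paralogs were at low levels and had fold changes of opposite sign. Asphd1 was at 0.435 ± 0.0577 FPKM in CONT and 1.16 ± 0.112 FPKM in CAC (log2 fold change 1.39 ± 0.40, adjusted p = 0.275). Asphd2 was at 0.332 ± 0.153 and 0.116 ± 0.0623 FPKM (-1.51 ± 0.60, adjusted p = 0.358). Of 15 tested hydroxylases that use 2-oxoglutarate, 2 were higher and 1 lower at an unadjusted p under 0.05 (all genes 6.31% and 6.95%), and 0 to 3 had such a p with each library left out. The third after these paralogs was Egln2, an oxygen-sensing prolyl hydroxylase, at 0.76 (adjusted p = 0.337). The list's median was 0.01, and Asphd1 had an adjusted p of 0.0446 with DESeq2.

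Around the calcium store that junctin and junctate serve, 17 genes were tested, and 4 were higher and 1 lower at an unadjusted p under 0.05 (all genes 6.31% and 6.95%). Stim1, the calcium sensor of the ER, had a log2 fold change of 0.83 (adjusted p = 0.334), and the calcium pumps Atp2a1 and Atp2a3 had 1.23 (adjusted p = 0.34) and 0.51 (adjusted p = 0.352). With each library left out, 1 to 2 of the 17 had such a p, in place of 5. The median of the 17 was 0.26, and 0 had an adjusted p under 0.05 with edgeR or DESeq2. Skeletal muscle, in which Atp2a1 is abundant, was represented by 5 markers that summed to 7.14 to 44.4 CPM in CONT and 8.87 to 45.9 CPM in CAC. Of these markers only Myh4 did not overlap (all genes 22.5%), at 0.0452 to 0.892 CPM in CONT and 2.30 to 2.98 CPM in CAC. Its CONT values rest on 10, 14 and 1 reads. The groups overlapped in Acta1 (log2 fold change -0.09), Mylpf (-0.38), Ckm (1.26) and Myh1 (0.82). Atp2a1 was higher in every CAC library (1.64 to 3.40 CPM) than in every CONT library (0.949 to 1.05 CPM). The part of muscle in the Atp2a1 difference was not tested.

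Kcna5 and Asph were the closest pair among the 8 genes, with a root mean square difference of 0.15 on the log2 scale, and Fitm2, which helps package fat into droplets, was the gene most like each of them (0.13 and 0.10). The genes that followed were Galnt15 (0.13) and Slc39a8 (0.15) for Kcna5, and Ear2 (0.15) for Asph. CAC replicate 2 was the lowest CAC library for 5 of the 6 genes that were higher in CAC, and Enc1 was the exception.

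Doc2b (ENSMUSG00000020848, chr11:75768966-75796049, minus strand) was the least abundant of the genes in CONT. Its level was 1.96, 3.72 and 2.17 CPM in CONT and 27.3, 15.8 and 17.2 CPM in CAC. All CAC libraries exceeded all CONT libraries, by at least 2.06 on the log2 scale. The CONT values rest on 22, 85 and 48 reads, and counting error alone was 21.3% for the 22 reads of CONT replicate 1. Its fold change was 2.93 ± 0.40 on the log2 scale, and 2.71 to 3.28 with each library left out. The levels of 0.482 ± 0.173 and 3.77 ± 1.20 FPKM were so low that log2(FPKM + 1) gave a difference of 1.66.

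The transcript Gm12339, which overlaps the start of Doc2b on the opposite strand, was the gene most like it (root mean square difference 0.39), with 0, 1 and 0 reads in CONT and 16, 15 and 28 in CAC. The sources used here do not state that reads were counted by strand, so reads of the overlap cannot be assigned to either gene with certainty, and its 60 reads compare with 1666 on Doc2b. Acer2, a ceramidase, and Tead1, a transcription factor of the Hippo pathway, were next in likeness (0.39 and 0.48). On either side of Doc2b, Ywhae had a log2 fold change of -0.28 ± 0.30 (adjusted p = 0.712) and Rph3al, an effector of Rab proteins in exocytosis, of 0.50 ± 0.32 (adjusted p = 0.52).

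Of 18 tested genes of calcium-triggered exocytosis and GLUT4 vesicle fusion, 2 had a fold change above and 16 below 0, with a median of -0.23 against -0.06 over all genes, of which 54.1% were below 0. Without CONT replicate 1, which had the highest level of several of them (Stx4a at 144 CPM against 72.3 and 72.2 CPM in the other CONT libraries), 4 were above and 14 below 0, with a median of -0.15, and Stx4a had -0.23. None reached an adjusted or unadjusted p under 0.05 with edgeR, and none an adjusted p under 0.05 with DESeq2. With each library left out, 0 to 1 had an unadjusted p under 0.05 (1 without CAC replicate 1 and 1 without CONT replicate 1). The smallest p-values of the list were those of Syt2, a synaptotagmin (-1.92, adjusted p = 0.378), Stx4a, the plasma membrane syntaxin that Doc2b binds (-0.66, adjusted p = 0.429), and Rph3al. Syt2 was at 2.30, 0.888 and 0.264 CPM in CAC, and without CAC replicate 1 its log2 fold change was -2.84. Slc2a4, which encodes GLUT4 itself, had a log2 fold change of -0.16. The paralog Doc2g, at 6.33, 0.701 and 0.949 CPM in CONT and 0.888 to 1.23 CPM in CAC, was at 0.711 ± 0.855 FPKM in CONT and 0.286 ± 0.0486 FPKM in CAC (-1.30 ± 0.90, adjusted p = 0.55). Without CONT replicate 1 its log2 fold change was 0.37, of the opposite sign. Doc2a had 3 reads in all. Doc2b made up 17.7%, 77.5% and 61.3% of the FPKM of the 3 DOC2 genes in CONT replicates 1 to 3 and 91.8% to 93.9% in CAC.

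Cuzd1 (ENSMUSG00000040205, chr7:131308554-131322292, minus strand) showed the widest gap between the groups of any gene tested. Its level was 51.9, 74.2 and 224 CPM in CONT and 1.23, 2.22 and 1.55 CPM in CAC. CONT replicate 3 was 4.33 times CONT replicate 1, yet the lowest CONT library was above the highest CAC library by 4.49 on the log2 scale. The log2 fold change was -6.13 ± 0.70. Without CONT replicate 3 it was -5.22, and without CONT replicate 1 it was -6.48. The CAC values rest on 30, 55 and 41 reads, the first with a counting error of 18.3%. Per length, the level was 41.6 ± 33.4 FPKM in CONT, the highest of the 8 genes, and 0.602 ± 0.178 FPKM in CAC.

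Epididymis markers were also higher in CONT, but in CONT replicates 1 and 2 their order was the reverse of that of Cuzd1. Their sum was highest in CONT replicate 3, as was Cuzd1, and at or near 0 in CAC. In CONT replicate 2 the 5 markers summed to 2.63 CPM (55 reads on Adam7, 5 on Crisp1 and 0 on Gpx5, Lcn5 and Lcn8) and Cuzd1 was at 74.2 CPM. In CONT replicate 1 the markers summed to 202 CPM and Cuzd1 was at 51.9 CPM. Pancreatic acinar markers summed to 21.0, 0.832 and 0.542 CPM in CONT and to 0, 0.283 and 122 CPM in CAC, and the CAC library with 122 CPM had Cuzd1 at 1.55 CPM. The part of either tissue in the Cuzd1 difference was not tested. The genes most like Cuzd1 were Defb29 (0.74), a beta-defensin, Adamts16 (0.95), a secreted metalloprotease, and Wfdc8 (0.95), a protease inhibitor of the WAP family, all less alike than the best matches of the other 7 genes. They were scarcer, at 1.87 to 5.62 CPM on average in CONT.

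**Figure D2:**
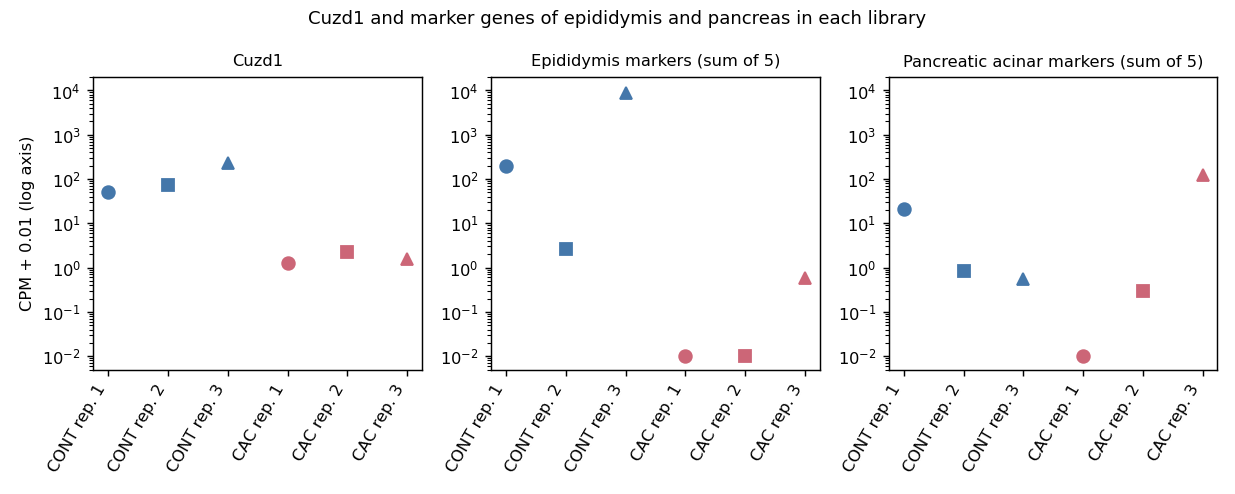
CPM plus 0.01 on log axes in each of the 6 libraries (CONT in blue, CAC in red) for Cuzd1, for the sum of 5 epididymis markers and for the sum of 5 pancreatic acinar markers. Points at the bottom of the marker panels are sums of 0, and CONT replicate 2 combined 2.63 CPM of epididymis markers with 74.2 CPM of Cuzd1.

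Cuzd1 lies within the deposited span of Fgfr2 on the same strand. Fgfr2, a fibroblast growth factor receptor, had 3472 reads and a log2 fold change of 0.29 ± 0.33 (adjusted p = 0.732). Its neighbours 5430419D17Rik and Fam24b had 45 and 115 reads in all and were not tested. Of 11 other genes with a zona pellucida domain, 3 were tested, and 2 were higher and 0 lower at an unadjusted p under 0.05 (all genes 6.31% and 6.95%). They were Tectb, a component of the inner ear's tectorial membrane, at 3.26 ± 0.96 (adjusted p = 0.283, and 0.0146 with DESeq2) and Tgfbr3, a TGF-beta co-receptor, at 0.68 (adjusted p = 0.312). Tectb was at 10.04 CPM in CAC replicate 3 against 1.52 and 3.996 CPM in the other CAC libraries, and without CAC replicate 3 it had 2.35 and kept an unadjusted p under 0.05. Tgfbr3 lost its unadjusted p under 0.05 without CAC replicate 2, CAC replicate 3 or CONT replicate 2. Eng, the endothelial co-receptor of the same kind, was at 0.04.

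Fam20c (ENSMUSG00000025854, chr5:138754514-138810077, plus strand) was at 44.3, 60.4 and 55.7 CPM in CONT and at 19.8, 14.1 and 13.6 CPM in CAC. The groups lay 1.16 apart on the log2 scale at their nearest libraries, CONT replicate 1 and CAC replicate 1. The log2 fold change was -1.75 ± 0.23, and -1.90 to -1.65 with each library left out. Without CONT replicate 1, the library rich in mitochondrial reads, it was -1.86. Markers of adipose progenitors and fibroblasts summed to 1781 to 2280 CPM in CONT and 1330 to 1873 CPM in CAC. Without overlap, 3 of the 6 were lower (Col1a1, Col3a1 and Pi16) and 1 higher (Dcn), against 10.7% and 11.8% of all genes. Pdgfra and Dpp4 overlapped. Macrophage markers summed to 458 to 1394 CPM in CONT and 613 to 965 CPM in CAC. The part of these cells in the Fam20c difference was not tested.

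The 3 FAM20 genes differed in the sign of their fold changes. Fam20a, the pseudokinase that binds and activates Fam20c, was at 2.16 ± 0.196 FPKM in CONT and 5.63 ± 2.35 FPKM in CAC (log2 fold change 1.36 ± 0.37, adjusted p = 0.268, and 0.0252 with DESeq2). Fam20b, the xylose kinase of proteoglycan synthesis, was at 7.28 ± 3.41 and 7.42 ± 1.11 FPKM (0.00 ± 0.36, adjusted p = 1.00). Fam20c, at 6.52 ± 0.959 and 1.97 ± 0.445 FPKM, made up 34.7% to 47.1% of the family's FPKM in CONT and 10.6% to 17.5% in CAC. Whether Fam20a and Fam20c differed from each other was not tested.

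Among 13 tested genes of secretory-pathway kinases and FAM20C substrates, 3 were higher and 1 lower at an unadjusted p under 0.05 (all genes 6.31% and 6.95%). Besides Fam20a they were Fam69b, of the same kinase superfamily, at -1.37 (adjusted p = 0.242), Igfbp3, a binding protein of insulin-like growth factors, at 1.87 (adjusted p = 0.251), and Pkdcc, a secreted tyrosine kinase, at 1.26 (adjusted p = 0.255). None had an adjusted p under 0.05 with edgeR, and all 4 did with DESeq2 (0.00271 to 0.0252). The median of the list was -0.04. The genes most like Fam20c were Dclk1 (0.10), a doublecortin-like kinase, Spic (0.18), a transcription factor of macrophages, and Unc119 (0.23), a lipid-binding trafficking protein.

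**Figure D3:**
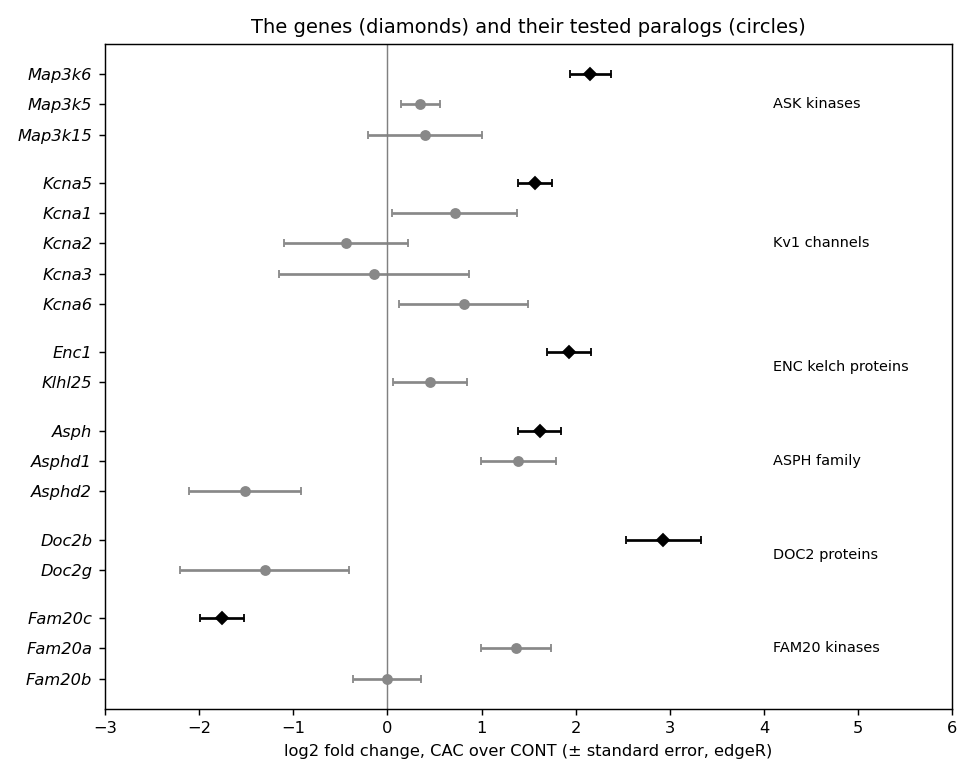
Log2 fold change of CAC over CONT (horizontal axis) with its standard error from edgeR, for 6 of the genes (diamonds) and their tested paralogs (circles), grouped by family. Map3k6 stood at 2.16 against 0.35 for Map3k5, Fam20c at -1.75 against 1.36 for Fam20a, and Doc2g at -1.30, which was 0.37 without CONT replicate 1.

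Over all 9 lists of related genes, 118 of 149 were tested, and 22 (18.6%) had an unadjusted p under 0.05, 16 higher and 6 lower, against 13.3% of all genes tested. The groups did not overlap in 29 of the 118, 19 higher and 10 lower (24.6%, against 22.5% of all genes), and the median log2 fold change was 0.01. None had an adjusted p under 0.05 with edgeR, and 8 had with DESeq2 (5.62% of all genes).

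By level per length, the order of the 8 genes differed between the groups. In CONT, Cuzd1 led at 41.6 FPKM, ahead of Map3k6 at 8.93, and Fam20c at 6.52, Enc1 at 6.20 and Asph at 6.01 lay within 1 SD of each other. Kcna5 (4.92), Olfr1033 (2.04) and Doc2b (0.482) came after them. In CAC, Map3k6 led at 40.5 FPKM, Enc1 (24.0), Olfr1033 (23.2) and Asph (18.7) followed with overlapping SDs, then Kcna5 at 14.8, Doc2b at 3.77, Fam20c at 1.97 and Cuzd1 at 0.602. Cuzd1 stood at the 94.6th percentile of the genes tested in CONT and at the 20.5th in CAC.

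**Figure D4:**
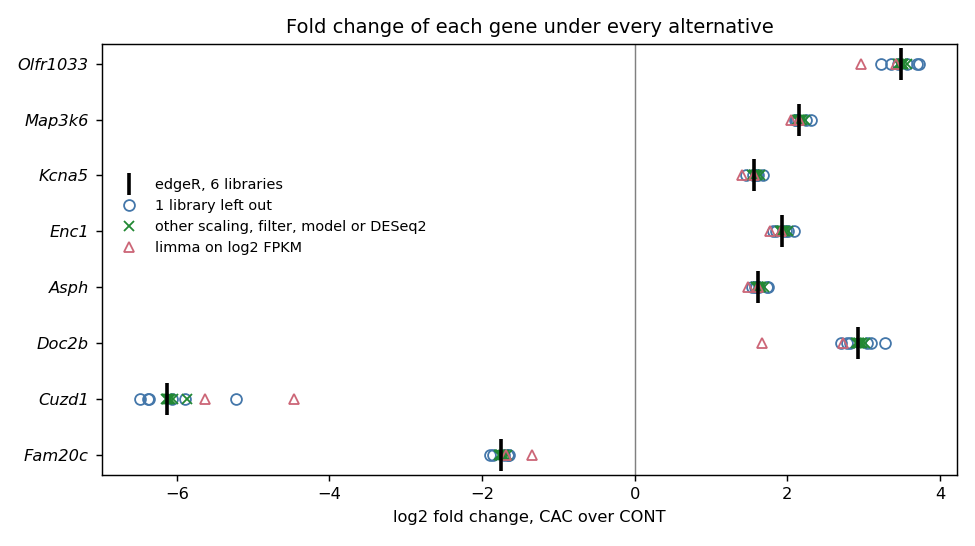
Log2 fold change of CAC over CONT for each of the 8 genes with all 6 libraries in edgeR (bars), with 1 library left out (circles), with another scaling, filter, model or DESeq2 (crosses) and with limma on log2 FPKM (triangles). Cuzd1 had the widest range, from -6.48 without CONT replicate 1 to -4.46 on the log2(FPKM + 1) scale.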

How the data were processed

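Gene counts and FPKM values of 6 eWAT libraries were used, 3 from CONT and 3 from CAC mice, grouped by the labels. The deposited counts are whole reads per gene made by the authors, with HISAT2 2.0.5 and featureCounts 1.5.0-p3 named in the submitters' processing notes, on Ensembl release 94. The deposited FPKM values are the authors' counts per gene length and per library size, where the size, worked back from the values, was 0.879 to 1.44 times the total count but 1.21 to 1.25 times the TMM-scaled size, so it was not the plain total. A pseudocount of 1 or 0.1 was added before log2. No column was left out. The 8 genes, the 9 lists of related genes and the 15 marker lists were chosen with earlier results of these data known.

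Counts were fitted across 17296 genes of 55039 that passed filterByExpr, with TMM scaling and the quasi-likelihood test of edgeR 4.0.16 in R 4.3.3 (robust, Benjamini-Hochberg adjustment), tested on simulated data. DESeq2 1.42.0 and limma 3.58.1 on log2 FPKM served as alternatives, beside other scalings and filters, a replicate block and leaving out each library. Depth was 15713794 to 25926425 reads, so 1 CPM stood for 11.2 to 26.5 reads, and counting errors cover counting only. Likeness was the root mean square difference of log2 CPM with a prior count of 2. The genes named besides the 8 were the closest paralogs, the 3 smallest unadjusted p-values of each list, overlapping and adjacent genes, the 3 most alike genes and the 5 Olfr genes with most reads. Where an adjacent gene had fewer reads than could be tested, it was named only where its reads bear on a result. Slc2a4 and the marker genes lie outside this rule. A gene that the rule would name is not reported here. Gene models were those of GENCODE M21 (GRCm38), and promoters those of RefSeq. Motifs were searched on both strands.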

Additional observations from a re-analysis of the deposited data

How the results depend on the processing

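With 3 mice a group and a common dispersion of 0.265, the adjusted p was the least stable quantity, and an exact permutation test of 3 against 3 cannot go below 0.1. The direction and separation of the 8 genes were fixed by how they were chosen, and nothing about stability is read from them. Genes with an adjusted p under 0.05 numbered 0 with edgeR, 965 with DESeq2, 5 with limma on log2(FPKM + 1) and 6 on log2(FPKM + 0.1), and among the related genes 8 with DESeq2 against 0. Genes with an unadjusted p under 0.05, 2294 in all, numbered 1384 to 3032 with 1 library left out (fewest without CAC replicate 2, 1491 without CAC replicate 3), and the related genes, 22, numbered 11 to 19 (11 without CONT replicate 3 or CAC replicate 2, 12 without CAC replicate 3). The cause was not tested. On log2(FPKM + 1) the fold change of Doc2b was 1.66 and that of Cuzd1 -4.46.

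Same-numbered CONT and CAC libraries correlated at 0.31, -0.15 and -0.22 in their deviations from the group means, and differently numbered ones at -0.44 to 0.47. The deviations of a group sum to 0 over its 3 libraries, so these values cannot decide whether the numbers pair the mice. The replicate block takes same-numbered libraries as matched. With it, 1 gene had an adjusted p under 0.05, and 1992 genes and 15 related genes had an unadjusted p under 0.05. The main fit took no library pair as matched.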
